A study of Mus musculus with 6 samples.

Results

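Gm42730 and 9 genes listed with it for their place near 73.4 Mb of mouse chromosome 5 were examined in microinjected dorsal root ganglia (DRGs), which hold the cell bodies of sensory neurons. They are 10 of the 48440 rows of the count table, and 7 of them were among the 18593 rows with enough counts to test. Gm42730 was selected because it rose in the comparison described here, as the candidate row for NIS-lncRNA, so its values are a description and carry no test. The other 9 (Gm42732, Gm42733, Gm42734, Ociad1, Ociad2, Fryl, Slain2, Cwh43 and Dcun1d4) were listed by position or by a neighbouring gene number, and their difference between groups was tested.

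The ganglia came from wild-type male mice. In 3 libraries the L3/4 DRGs had received AAV5-Gfp, an adeno-associated virus that expresses green fluorescent protein, and in the other 3 AAV5-V1 mixed with AAV5-V2, viruses that carry the 2 variants of the NIS-lncRNA transcript (AAV5-V1+V2). The ipsilateral ganglia were collected 5 weeks after microinjection according to the deposited design, which also places the comparison at 4 weeks. The promoter of the vectors and the number of animals behind a library are not given in the sources used here. Each group had a virus preparation of its own, so effects of the transcripts and of the preparation cannot be told apart.

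A long noncoding RNA is transcribed but not translated. Some act in cis, on genes close to the place where they are transcribed, and others act in trans, on distant genes. A transcript delivered by a virus is made away from its own locus, so a comparison of the locus neighbours asks whether their RNA changed when the transcript was supplied from elsewhere. The neighbours listed here have no common pathway. Ociad1 and Ociad2 encode OCIA domain proteins of mitochondria and endosomes, Fryl a relative of the furry protein, Slain2 a protein of growing microtubule ends, Cwh43 an enzyme-like membrane protein that remodels the lipid of GPI anchors, and Dcun1d4 a member of the family that attaches NEDD8 to cullins.

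The study places NIS-lncRNA in a stretch of chromosome 5 that GENCODE M21 (GRCm38) assigns to Gm34583, a transcribed processed pseudogene at chr5:73380560-73391102 on the plus strand. None of the rows used here is named Gm34583, so no counts of it were analysed. On one side of it lies Ociad2 (chr5:73322199-73341028, minus strand) and on the other Cwh43 (chr5:73406075-73453435, plus strand), the nearest protein-coding genes. Below are windows of 250 bases before to 50 after the start that RefSeq annotates for these genes (GRCm38.p6). For Gm34583 and Ociad2 that start differs from the GENCODE start, which lies outside the window. The windows are shown because they flank or hold the place the neighbours were chosen for. Each reads 5′ to 3′ on the strand of its gene, and capitals mark AGGAAGT, a form of the GGAA core bound by ETS factors, the family of ELF1, which the study examined at this promoter.
Gm34583, chr5:73380102-73380401, plus strand: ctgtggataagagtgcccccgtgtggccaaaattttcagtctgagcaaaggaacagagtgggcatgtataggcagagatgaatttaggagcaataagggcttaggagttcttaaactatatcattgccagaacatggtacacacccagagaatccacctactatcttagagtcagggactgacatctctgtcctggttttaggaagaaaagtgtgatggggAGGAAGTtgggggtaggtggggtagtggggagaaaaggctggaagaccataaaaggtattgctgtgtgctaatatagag
Ociad2, chr5:73338898-73339197, minus strand: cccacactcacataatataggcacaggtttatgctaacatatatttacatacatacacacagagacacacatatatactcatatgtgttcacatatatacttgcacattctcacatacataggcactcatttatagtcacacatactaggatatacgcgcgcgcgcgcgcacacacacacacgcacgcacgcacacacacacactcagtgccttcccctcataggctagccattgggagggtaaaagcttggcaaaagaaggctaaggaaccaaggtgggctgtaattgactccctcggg
Cwh43, chr5:73405828-73406127, plus strand: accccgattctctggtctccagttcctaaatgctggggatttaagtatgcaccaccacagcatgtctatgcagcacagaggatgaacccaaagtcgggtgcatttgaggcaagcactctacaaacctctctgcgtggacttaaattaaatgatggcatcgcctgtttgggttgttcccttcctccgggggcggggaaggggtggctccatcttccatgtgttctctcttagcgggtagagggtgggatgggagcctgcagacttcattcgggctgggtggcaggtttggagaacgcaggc

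AGGAAGT was searched on both strands, and 3072 of the 32851 RefSeq windows of that length held it (9.35%). The Gm34583 window held it once, on the plus strand, at position -29 from the start that RefSeq annotates. AGGAAGT is part of the motif the paper names in this promoter. That hit was therefore fixed in advance, and nothing is read from it beside the 9.35%. None of the 8 windows of the 6 members that have one held these letters. A match of letters alone is a description and does not show binding, which was not measured here. For the Gm34583 hit, the letters on both sides also match the ELF1 motif that the paper prints for the NIS-lncRNA promoter. In the paper that motif is numbered farther before the start, so -29 holds only for the start that RefSeq annotates. The paper reports that an ELF1 antibody brought down a promoter fragment with this motif from DRGs, more so after nerve injury. It also reports that an Elf1 vector raised the activity of this promoter in cultured cells.

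Gm42730 was near 20 reads in every AAV5-Gfp library and above 100 in every AAV5-V1+V2 library. Its counts were 19, 20 and 18 with AAV5-Gfp and 117, 117 and 140 with AAV5-V1+V2, in libraries of 32025612 to 34764282 counts. In CPM (reads of a gene for each megaread of its library, after edgeR's TMM scaling) it was at 0.589, 0.577 and 0.577 with AAV5-Gfp and at 3.56, 3.52 and 4.08 with AAV5-V1+V2. The groups did not overlap, and the ratio of the group means, 3.72 ± 0.316 against 0.581 ± 0.00677 CPM (SD, n = 3), was 6.40. The fitted log2 difference was 2.67, the 265th of the 1872 genes called higher when these are ordered by that difference. Those 1872 genes are 10.1% of all genes tested, and nothing is read from the membership of Gm42730, since it was selected on this contrast.

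The libraries of a group lay close together for Gm42730. The highest AAV5-V1+V2 library was 1.16 times the lowest, and in AAV5-Gfp that ratio was 1.02. The coefficient of variation among AAV5-Gfp libraries was 1.17%, below the 22.9% that counting error alone gives for a sum of 57 reads in 3 libraries. Among AAV5-V1+V2 libraries, with 374 reads in all, it was 8.50%, beside 8.96% from counting alone. The SD of the AAV5-Gfp libraries therefore understates the error of their level. Neither the GENCODE M21 annotation nor the RefSeq tables used here hold a gene of this name, so its position, length, strand and sequence are not stated, and whether its reads come from the vector transcripts was not tested.

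**Figure D1:**
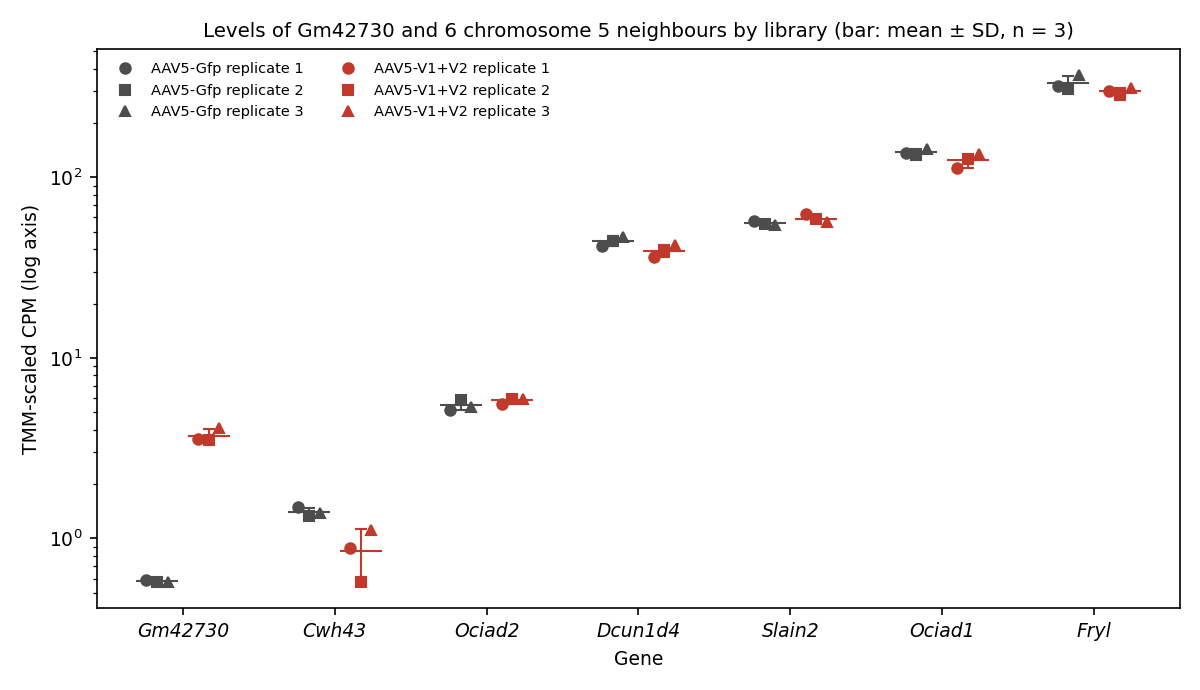
Level of Gm42730 and the 6 tested neighbours in each library, in TMM-scaled CPM on a log axis, with AAV5-Gfp in gray and AAV5-V1+V2 in red, horizontal bars for the mean and vertical bars for the SD (n = 3). Gm42730 moves from 0.581 to 3.72 CPM between the group means, Cwh43 lies lower in all 3 AAV5-V1+V2 libraries, and the groups overlap for the other 5 genes.

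The rows with the closest gene numbers gave almost no reads. Gm42732 (chr5:73311364-73312560, plus strand) had a single read in AAV5-V1+V2 replicate 1 and none elsewhere. Gm42733 (chr5:73308059-73308577, minus strand) had 1 read in AAV5-Gfp replicate 2, and Gm42734 (chr5:73272872-73273749, plus strand) 1 read in AAV5-Gfp replicate 3. The annotation types all 3 as TEC, a class of transcripts that still await experimental proof. Each was at or under the floor of 3 counts used here, which is 0.0866 to 0.0961 CPM, so no fold is given and a difference between groups was not detectable at this depth. Gm42732 and Gm42733 lie inside Ociad1, on its own and on the opposite strand, and Gm42734 lies inside the lincRNA 1700025M24Rik on the opposite strand. The library kit keeps the strand, but whether the counting used it is not given in the sources used here, so reads of such overlapping genes may have been assigned to either.

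**Figure D2:**
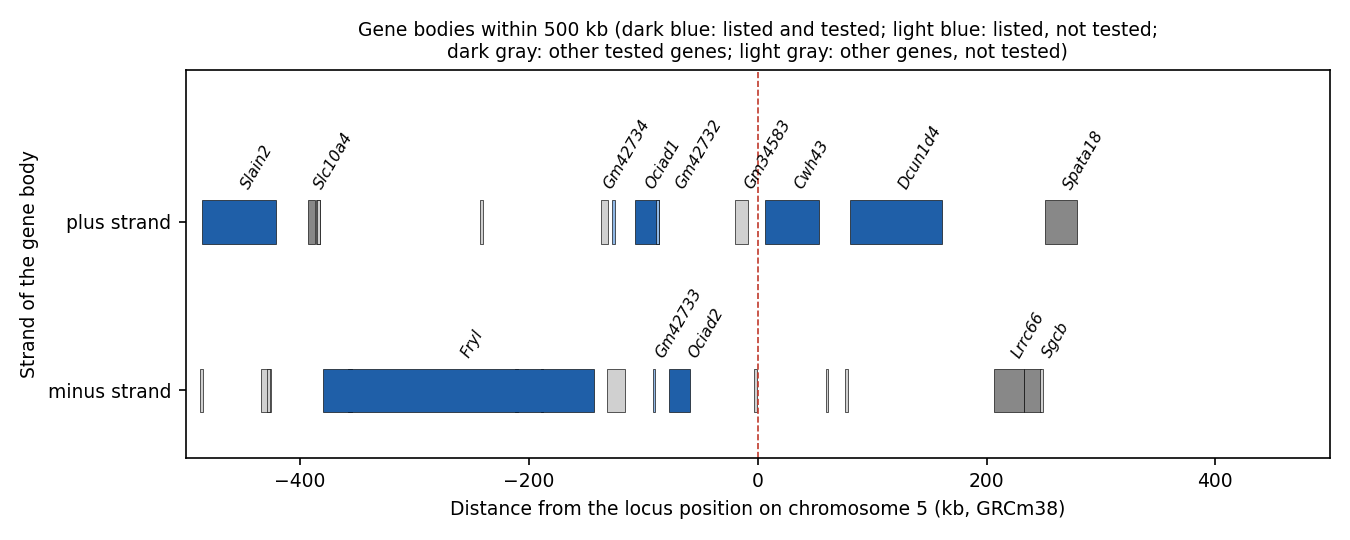
Map of the gene bodies within 500 kb of 73.4 Mb on chromosome 5 (dashed line), by strand, with distance in kb on the horizontal axis. Listed genes are blue (dark where tested), Gm34583 lies just left of the line, and Cwh43 starts 6.1 kb to its right. Gm42730 is not drawn because no position is known for it.

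None of the 6 tested neighbours was called higher or lower with AAV5-V1+V2, which does not show that their levels were unchanged. The test was edgeR's quasi-likelihood test at a Benjamini-Hochberg adjusted p under 0.05 over all genes. The background was 10.1% of all 18593 genes tested called higher and 5.27% called lower (15.3% either way). At that share a count of 0 among 6 genes is not unusual, so nothing is read from it. At an unadjusted p under 0.05, 1 of the 6 was lower (Cwh43) and 0 were higher. Over all 18593 genes tested, 2878 were lower and 3577 higher at that threshold, so nothing is read from the 1 of 6 either. DESeq2 and limma-voom also called 0 of the 6. Their median log2 difference was -0.15, beside -0.0003 over all genes tested, and 4 of the 6 were negative. The groups did not overlap for 1 of the 6, and 45.4% of all genes tested had groups that do not overlap.

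Cwh43 had the largest difference of the 6 and lies nearest to Gm34583, which ends at chr5:73391102, while Cwh43 starts at chr5:73406075. Its start is 6.1 kb from 73.4 Mb, a position that lies between both genes. It was counted 48, 46 and 43 times with AAV5-Gfp and 29, 19 and 38 times with AAV5-V1+V2. Its level was 1.49, 1.33 and 1.38 CPM with AAV5-Gfp and 0.881, 0.571 and 1.11 CPM with AAV5-V1+V2. All 3 AAV5-V1+V2 libraries were below the lowest AAV5-Gfp library, with replicate 2 lowest. The ratio of means was 0.611 and the fitted log2 difference -0.71 (SE 0.264, 95% interval -1.32 to -0.09). It did not pass the test over all genes (unadjusted p = 0.0299, edgeR's quasi-likelihood adjusted p = 0.106). The exact two-sided permutation test over libraries gave p = 0.1, the smallest that 3 against 3 libraries allows. Over 14 alternatives the log2 difference ran from -0.93 to -0.48, nearest to 0 without AAV5-V1+V2 replicate 2, and the adjusted p from 0.0574 to 0.232.

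Ociad1 (chr5:73292784-73314069, plus strand) was the most abundant neighbour per kb of exon. Its level was 137.1, 133.7 and 143.6 CPM with AAV5-Gfp and 112.4, 126.5 and 134.0 CPM with AAV5-V1+V2. AAV5-V1+V2 replicate 3 reached into the AAV5-Gfp range, so the groups overlapped. The log2 difference was -0.15 (SE 0.081, edgeR's adjusted p = 0.226), with a 95% interval for the change from -21.1% to 2.69% relative to AAV5-Gfp. Ociad2, its relative and next neighbour toward Gm34583, was at 5.17, 5.83 and 5.38 CPM with AAV5-Gfp and 5.59, 5.95 and 5.92 CPM with AAV5-V1+V2. These groups overlapped as well, and the log2 difference was 0.09 (SE 0.114, adjusted p = 0.598), with an interval from -11.4% to 28.1%. The difference between the responses of both OCIA domain genes was not tested.

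Dcun1d4 (chr5:73481000-73560794, plus strand) lies beyond Cwh43, 81.0 kb from 73.4 Mb. It was at 41.7, 44.6 and 47.0 CPM with AAV5-Gfp and at 36.1, 39.5 and 42.0 CPM with AAV5-V1+V2. Replicate 3 of AAV5-V1+V2 lay just above the lowest AAV5-Gfp library. The log2 difference was -0.18 (SE 0.082, edgeR's adjusted p = 0.165), with a 95% interval from -22.7% to 0.816%. An increase of more than that upper bound is outside the interval, while a fall of up to its lower bound is not.

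Fryl (chr5:73019987-73256619, minus strand) and Slain2 (chr5:72914304-72978829, plus strand) are the farthest listed neighbours, at -143.4 and -421.2 kb from 73.4 Mb. Fryl was at 322.2, 307.8 and 370.9 CPM with AAV5-Gfp and 302.2, 286.9 and 313.3 CPM with AAV5-V1+V2. Its groups overlapped, AAV5-Gfp replicate 3 stood above the rest, and the log2 difference was -0.15 (SE 0.093, adjusted p = 0.293). Slain2 was at 57.3, 54.9 and 54.7 CPM with AAV5-Gfp and 62.4, 58.5 and 56.5 CPM with AAV5-V1+V2. It overlapped too, with a log2 difference of 0.09 (SE 0.064, adjusted p = 0.366) and a 95% interval from -4.25% to 17.96%. The interval of Fryl ran from -22.5% to 4.87%. The exact permutation test gave p = 0.2 for each of the 5 tested neighbours other than Cwh43.

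The order of the neighbours by level was taken per kb of exon, since the genes differ in length. In AAV5-Gfp libraries Ociad1 had 25.0 ± 0.908 CPM per kb and Fryl 22.0 ± 2.18 (SD, n = 3), with overlapping ranges. Dcun1d4 followed at 7.65 ± 0.458 CPM per kb and Slain2 at 6.59 ± 0.169, which did not overlap. Ociad2, at 2.01 ± 0.123, and Cwh43, at 0.479 ± 0.0280, were far below. With AAV5-V1+V2 the ranges of Ociad1 and Fryl again overlapped, and those of Slain2 (6.998 ± 0.355) and Dcun1d4 (6.76 ± 0.508) now did. Ociad2 and Cwh43 kept their places at 2.14 ± 0.0725 and 0.293 ± 0.0925 CPM per kb. Gm42730 has no place in this order because its length is unknown.

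With the 9 listed neighbours included, 62 rows of the table lie within 1 Mb of 73.4 Mb, for 61 of the 63 annotated genes. Of these rows, 20 had no read in any library and 35 had at most 3 in every library. Of the 19 that could be tested, 2 were higher with AAV5-V1+V2 and 0 lower (10.5%, beside the 15.3% of all genes), with a median log2 difference of -0.08. Within 0.5 Mb 0 of 10 tested genes were called, and these include the 6 tested neighbours. Within 0.2 Mb it was 0 of 5, all of them listed neighbours, so these counts largely repeat the result above. Within 2 Mb 3 of 28 were called, the added gene being Gabrb1, a GABA receptor subunit, which was lower (log2 difference -0.67, edgeR's adjusted p = 0.0278, and 0.0542, 0.0948 and 0.107 without AAV5-Gfp replicate 1, 2 or 3).

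The called genes were Txk and Nfxl1, both on the far side of the listed genes. Txk, a Tec family kinase of T and natural killer cells, lies at -647.2 kb and was counted 64, 43 and 26 times with AAV5-Gfp and 237, 133 and 122 times with AAV5-V1+V2. Its log2 difference was 1.86 (SE 0.383, edgeR's adjusted p = 0.0248). Nfxl1, which encodes an NFX1-type zinc finger protein, lies at -840.3 kb and was counted 665, 824 and 655 against 995, 896 and 931 times. Its log2 difference was 0.37 (SE 0.088, adjusted p = 0.0361). Without AAV5-Gfp replicate 1, 2 or 3 neither gene was called (adjusted p of 0.0513, 0.0974 and 0.101 for Txk and 0.113, 0.0848 and 0.129 for Nfxl1), and Nfxl1 was not called without AAV5-V1+V2 replicate 2 either (0.0713). Over all 14 alternatives the adjusted p ran from 6.45e-05 to 0.101 for Txk and from 0.01 to 0.129 for Nfxl1.

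Tec, Cnga1 and Nipal1, which lie within 1 Mb on the same side as Txk, were named after their values were seen. Tec, another kinase of this family, was counted 1636, 1838 and 1334 times with AAV5-Gfp and 2706, 2044 and 2059 times with AAV5-V1+V2. These groups did not overlap, and the log2 difference was 0.48 (edgeR's adjusted p = 0.06). Tec was called with DESeq2, with a replicate block, without a filter on low counts and without AAV5-V1+V2 replicate 3, but in no other alternative. Cnga1, a cyclic nucleotide-gated channel subunit, had 5, 0 and 2 reads with AAV5-Gfp and 26, 28 and 9 with AAV5-V1+V2 and was too low for the filter. Nipal1, a magnesium transporter family gene between Cnga1 and Txk, had overlapping groups and a log2 difference of -0.30 (adjusted p = 0.35).

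**Figure D3:**
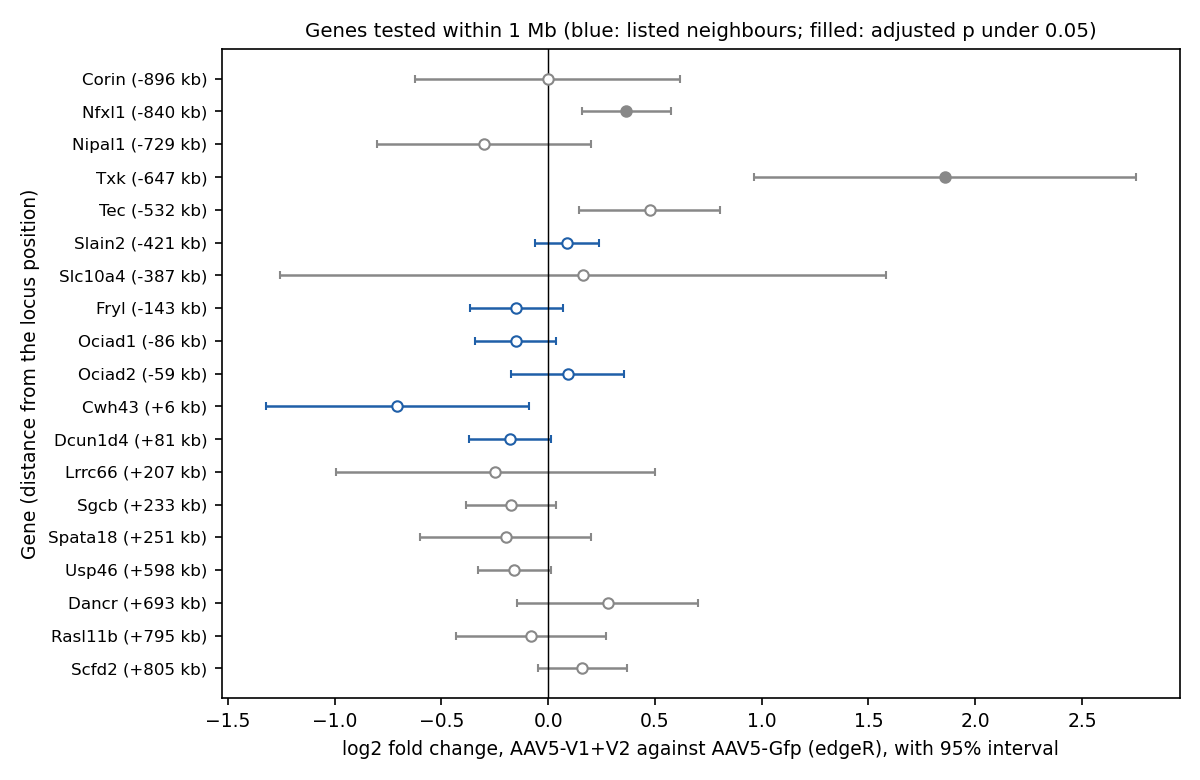
The log2 difference of AAV5-V1+V2 against AAV5-Gfp with its 95% interval for the 19 genes tested within 1 Mb, ordered along chromosome 5, with listed neighbours in blue and filled points for an adjusted p under 0.05. Only Nfxl1 and Txk are filled, and the 6 blue points lie between -0.71 and 0.09.

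The likeness of other genes to Gm42730 rests on the same values it was selected on and is a description. Over the 6 libraries, Pearson's r of log2 CPM with Gm42730 was highest for Ighv1-49 (0.9997), Ighg3 (0.9989), Ighv1-5 (0.9969), Il9r (0.9961) and Igkv12-40 (0.9960). All but Il9r, the interleukin-9 receptor, are immunoglobulin gene segments, whose near-identical copies make their counts uncertain. Ighv1-49 had 0 reads in each AAV5-Gfp library and 11, 10 and 13 with AAV5-V1+V2, and Il9r had 4, 3 and 3 against 23, 21 and 25. The AAV5-Gfp values of the 4 immunoglobulin segments, 0 to 2 reads, are mostly the prior count of 2, so the order among these 5 carries no meaning. A gap between groups gives a high r over these 6 points by itself, and 245 of the 18592 other genes reached 0.95. Among the neighbours r ran from -0.78 (Cwh43) to 0.66 (Slain2), which describes these 6 libraries only.

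Markers of immune cells were higher in the AAV5-V1+V2 libraries, beside Gm42730. Of the T and natural killer cell list 11 of 12 genes rose (Cd3e by 3.88 on the log2 scale), of the B and plasma cell list 8 of 8 (Jchain by 6.41), and of the macrophage list 9 of 10 (Lyz2 by 2.76), beside 10.1% of all genes tested. Without AAV5-Gfp replicate 2 or 3, 0 of the T and natural killer cell list, 1 of the B and plasma cell list and 0 of the macrophage list were called, in fits that called 12 and 15 genes higher over the whole table. Without AAV5-Gfp replicate 1, 11 of the T and natural killer cell list and 8 of the B and plasma cell list were called. That fit called 4 of the macrophage list and 257 of all 18975 genes tested higher. Every gene of these 3 lists was above 0 on the log2 scale in each of these 3 fits. Summed CPM of the T and natural killer cell list was 5.17 to 13.4 in AAV5-Gfp libraries and 49.99 to 110.3 in the others. That of the B and plasma cell list was 18.7 to 32.1 against 273.7 to 432.8, and that of the macrophage list 187.6 to 265.5 against 547.6 to 1493. The medians of the 3 lists were 3.35, 3.42 and 1.68 (log2), beside -0.0003 over all genes, and no listed marker was at 0 in every library. In bulk tissue, more or fewer cells of a type and more or less RNA per cell cannot be told apart.

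Within the AAV5-V1+V2 group, replicate 1 had the highest sum of each immune list. For the T and natural killer cell, B and plasma cell, and macrophage lists, the highest sum was 2.21, 1.58 and 2.73 times the lowest. Abundant genes weigh heavily on these sums. In replicate 1 Lyz2 gave 988.6 of the 1493 CPM of the macrophage list, and Jchain 193.7 of the 432.8 CPM of the B and plasma cell list. The same ratio was 3.64 for Lyz2 but 1.18 for Mrc1, and 1.15 for Jchain but 2.81 for Igkc. Txk was likewise highest in AAV5-V1+V2 replicate 1, and in AAV5-Gfp replicate 1 of its group. Gm42730 varied by 1.16 times within AAV5-V1+V2, no more than counting error gives, so its order among these libraries cannot be read. The part of these cells in the levels of Gm42730, Txk and Tec was not tested.

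The tissue label held in the markers of sensory neurons, of which all 12 were detected and tested. Their summed CPM was 9449 to 10170 in AAV5-Gfp libraries. Replicates 1, 2 and 3 of AAV5-V1+V2 had 6171, 8555 and 8960, which is 0.622, 0.862 and 0.903 of the AAV5-Gfp mean. In that list 2 genes fell, Rbfox3 (NeuN) and Pou4f1 (Brn3a), by 0.93 and 0.43 on the log2 scale, 0 rose, and the median was -0.35, beside 5.27% of all genes called lower. Without AAV5-Gfp replicate 1, 2 or 3 neither of these 2 was called (adjusted p of 0.0556, 0.0848 and 0.0972 for Rbfox3 and 0.101, 0.102 and 0.133 for Pou4f1), while all 12 stayed below 0 on the log2 scale. Of the 4 neighbours with a negative difference, Ociad1 and Dcun1d4 were likewise lowest in AAV5-V1+V2 replicate 1, whereas Fryl and Cwh43 were lowest in replicate 2. Whether these differences go with the neuronal share of the RNA was not tested. Of satellite glia 1 of 6 markers rose (Slc1a3) and of endothelium 1 of 4 (Pecam1), while 0 of 6 Schwann cell and 0 of 5 red blood cell markers were called. With 10.1% of all genes called higher, nothing is read from such counts, and neither Slc1a3 nor Pecam1 was called without AAV5-Gfp replicate 1, 2 or 3.

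**Figure D4:**
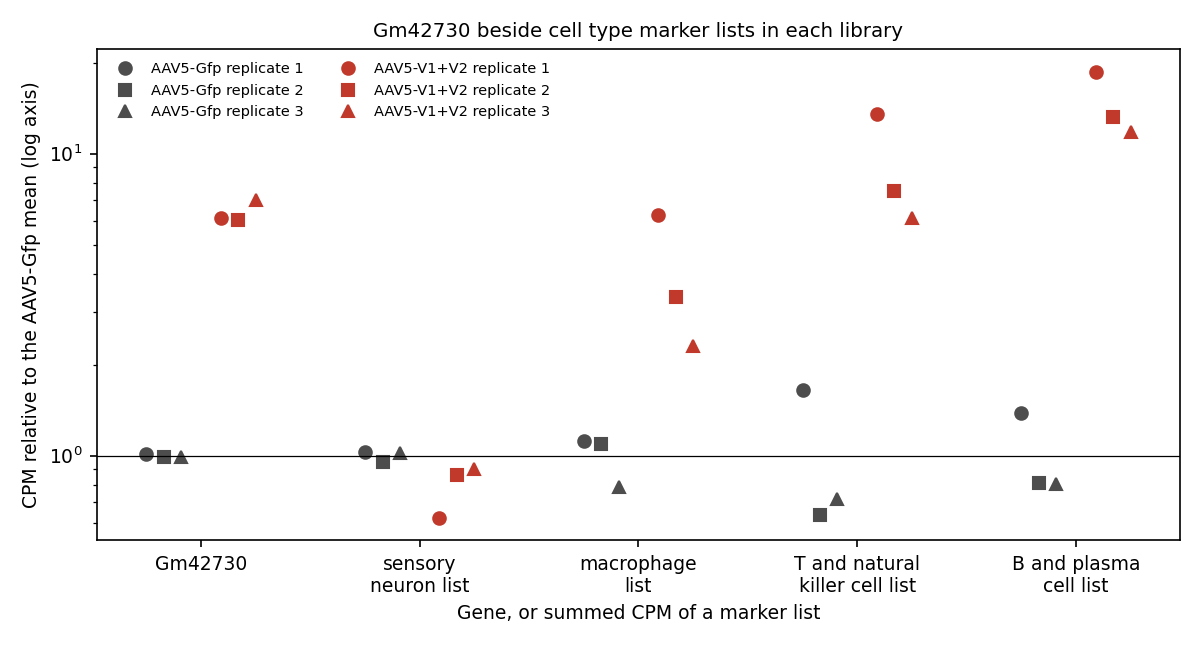
Level of Gm42730 and summed level of marker lists in each library, in CPM relative to the AAV5-Gfp mean on a log axis, with AAV5-Gfp in gray and AAV5-V1+V2 in red. The red points of the immune lists are highest in replicate 1 (circle), those of the neuron list lie at 0.622 to 0.903, and those of Gm42730 lie close together.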

How the data were processed

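Stranded total RNA libraries of DRGs were sequenced (3 AAV5-Gfp, 3 AAV5-V1+V2). Raw, whole-number counts per gene symbol were deposited by the authors. The labels name GRCm38 (mm10). Aligner, annotation and counter are not given in the sources used here. Totals ranged from 32025612 to 34764282 counts. Symbols were matched exactly to GENCODE M21 (46283 of 48440 rows).

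Counts were filtered (filterByExpr), scaled by TMM and tested with edgeR 4.0.16 (R 4.3.3) by quasi-likelihood, two-sided, with Benjamini-Hochberg adjustment over 18593 genes and a threshold of 0.05. Standard errors came from the coefficient and its F. Floors and counting errors cover counting only. The labels number replicates without stating separate animals, so p-values measure only the spread between these samples.

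Members and marker lists were chosen with earlier results of these data known. Named genes were all members, called genes within 1 Mb, the 5 most like Gm42730 by r (prior count 2), and up to 3 per marker list. Gabrb1, Tec, Cnga1 and Nipal1 were added after their values were seen, as was leaving out libraries for marker lists and Gabrb1. Alternatives covered scaling (RLE, upper quartile, total counts), filters, DESeq2 1.42.0, limma-voom (limma 3.58.1), a replicate block, each library left out, and window widths. The main fit did not pair libraries by replicate number. Correlations of same-numbered deviations were 0.036, 0.066 and 0.107, weak but all positive, so a pairing cannot be told from them.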

Additional observations from a re-analysis of the deposited data

How the results depend on the processing

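Each of the 6 tested neighbours kept its direction under all 14 alternatives, and 0 of them were called under any, so the adjusted p stayed above 0.05 throughout (lowest 0.0574, for Cwh43 without AAV5-V1+V2 replicate 3). The log2 difference of Gm42730 was taken only for the scaling alternatives and with each library left out, and ran from 2.61 to 2.73. Over all genes, DESeq2 called 1606 lower, against 980. Leaving out each library gave 12 to 2474 genes higher and 0 to 1446 lower, the fewest without AAV5-Gfp replicates 2 and 3 (12 and 15 higher, 0 and 0 lower, with 2916 and 2932 higher and 2029 and 1815 lower at an unadjusted p under 0.05). It also gave 257 higher and 59 lower without AAV5-Gfp replicate 1, and 1020 and 150 without AAV5-V1+V2 replicate 2, so that 0 called neighbours in these fits says little. The cause was not tested. Within 1 Mb the number called higher was 4 without a filter on low counts (with Tec and Cnga1) and 0 to 4 when each library was left out. It was 0 within 0.2 Mb and 0 within 0.5 Mb, while 1 gene was lower within 2 Mb. With total counts in place of TMM the median of all genes shifted to 0.06 (log2) and 74.6% of called genes were higher, against 65.6%. Deviations of same-numbered libraries correlated weakly. Each AAV5-Gfp library correlated best with its own number, which AAV5-V1+V2 replicate 1 did not, and whether the numbers pair the libraries cannot be told from this. With the replicate block 2118 genes were higher and 1341 lower, 0 neighbours were called, and 3 genes were called within 1 Mb (Nfxl1, Tec and Txk). Depth limits Cwh43, with 19 to 48 reads a library, and the rows with almost no reads.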
